A study of Gossypium herbaceum with 12 samples.

Results

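The probe sets described here read transcripts of the enzymes at the entry to phenylpropanoid and lignin synthesis in cotton leaves. They were chosen by keyword from the names given to probe sets in the lists of transcripts that differed between a drought-tolerant accession, Vagad, and a drought-sensitive accession, RAHS-14, of Gossypium herbaceum. The keywords were phenylalanine ammonia, phe ammonia, cinnamate 4-monooxygenase, coumarate, cinnamoyl-CoA reductase, cinnamyl, caffeoyl and laccase, and 21 of the 24132 probe sets on the array matched. By enzyme step, 4 were named phenylalanine ammonia-lyase, 7 cinnamate 4-monooxygenase, 4 coumarate-CoA ligase, 2 cinnamoyl-CoA reductase-related, 3 cinnamyl-alcohol dehydrogenase and 1 laccase, and no name held caffeoyl. Leaf RNA came from 12 potted greenhouse plants about a month old, 1 plant per Affymetrix Cotton Genome array and 3 plants in each of 4 groups. These groups were Vagad under drought, Vagad irrigated, RAHS-14 under drought and RAHS-14 irrigated. Drought plants had water withheld and were watered only in alternate weeks, and irrigated plants were watered daily. The plants carry no transgene, and each accession stands for its tolerance class alone, so accession and class cannot be told apart.

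Phenylalanine ammonia-lyase removes ammonia from phenylalanine to give cinnamate, and cinnamate 4-monooxygenase, a cytochrome P450, hydroxylates cinnamate to coumarate. Coumarate-CoA ligase then activates coumarate as its CoA ester, from which the pathway divides into flavonoids and anthocyanins on one side and lignin monomers on the other. On the lignin side cinnamoyl-CoA reductase and cinnamyl-alcohol dehydrogenase make the monolignols, and laccases oxidize them in the cell wall. The names are those of the closest Arabidopsis proteins, and several probe sets of 1 step may read copies of the same gene family. The suffix of 18 of the 21 marks probe sets that can bind more than 1 transcript, so signal from close family members cannot be separated. Different probe sets bind with different strength, so their levels were not ranked against each other.

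A pair of arrays, those of Vagad drought plants 1 and 2, differed from all others. Median signal was 323 in plant 1 and 346 in plant 2, while the remaining 10 arrays held medians of 61.3 to 74.7, and the median rank correlation with those 10 was 0.594 for plant 1 and 0.438 for plant 2, against 0.944 to 0.957 among the 10. For tag control probe sets the median was 89.0 in plant 1 and 96.7 in plant 2, against 1.36 to 7.43 on the other 10, and the log2 ratio between 3' and 5' probe sets of control transcripts was 0.60 in plant 1 and -0.71 in plant 2, against 0.90 to 2.05. The part of these differences in the Vagad responses was not tested. Values of these 2 plants are therefore named below, and Vagad responses over 12 arrays are given beside those over the 10 arrays that leave them out. Over the 10 arrays Vagad drought is 1 plant, so the spread comes from the other groups. A p-value there does not measure variation among Vagad drought plants. Every level below is the normalized signal on the log2 scale, where the lowest possible value is the floor of 4.10. A drought response is the drought mean minus the irrigated mean on that scale, tested with limma over 12883 probe sets. Calls required a fold of 2 or more and a Benjamini-Hochberg adjusted p below 0.05. Of the 21 members 20 were tested, and the laccase was too dim. The ammonia-lyase Ghi.4039.1.A1_s_at lay above its array's median on the 6 drought arrays and on 0 of the 6 irrigated arrays, so it entered the test through the plants where it was high. Of the other members tested, 17 lay above the median on all 12 arrays.

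In drought-treated RAHS-14 leaves, transcripts of the first, the third and the last 2 of these tested steps were higher than in irrigated leaves, while those of the second step changed by less than 2-fold. Raised were 3 of 4 ammonia-lyase probe sets, 0 of 7 cinnamate 4-monooxygenase, 3 of 4 coumarate-CoA ligase, 2 of 2 cinnamoyl-CoA reductase-related and 2 of 3 cinnamyl-alcohol dehydrogenase. In all, 10 of 20 rose, by 2.02-fold to 4.90-fold (adjusted p from 3.58e-07 to 0.00186 by limma, 3 plants per group), and 0 fell. These counts include the ammonia-lyase Ghi.4039.1.A1_s_at, which entered the test only through the drought arrays and set the top of that range. The next largest rise was 4.01-fold, in Gra.2682.2.S1_s_at. Over all probe sets tested 2.49% rose and 3.41% fell, and among the 1434 tested probe sets of the same lists 8.23% rose and 7.25% fell. In whole leaves a shift in cell types and a change of RNA per cell cannot be told apart. The median response of the 20 was 0.82, against 0.00 for all probe sets tested. Of all 21, the 3 drought plants lay above the 3 irrigated plants without overlap for 13, against 27% of probe sets tested, and below for 0, against 26.3%. In a fit that takes in the Vagad drought arrays as well, 2 of 20 rose, against 0.411% of all tested. The RAHS-14 irrigated arrays also belong to the accession comparison from which all 21 members were picked. The RAHS-14 drought arrays belong to the drought comparison from which 12 members were also picked. With RAHS-14 drought set against the mean of both irrigated groups, 8 of 20 rose and 0 fell, against 2.76% and 3.72% of all tested. Under equal spread that contrast is uncorrelated with the irrigated comparison, but not with the drought one. For control transcripts, the log2 ratio between 3' and 5' probe sets was 1.33 to 1.75 in the RAHS-14 drought plants and 1.80 to 2.05 in the irrigated ones, and its part in these responses was not tested.

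**Figure D1:**
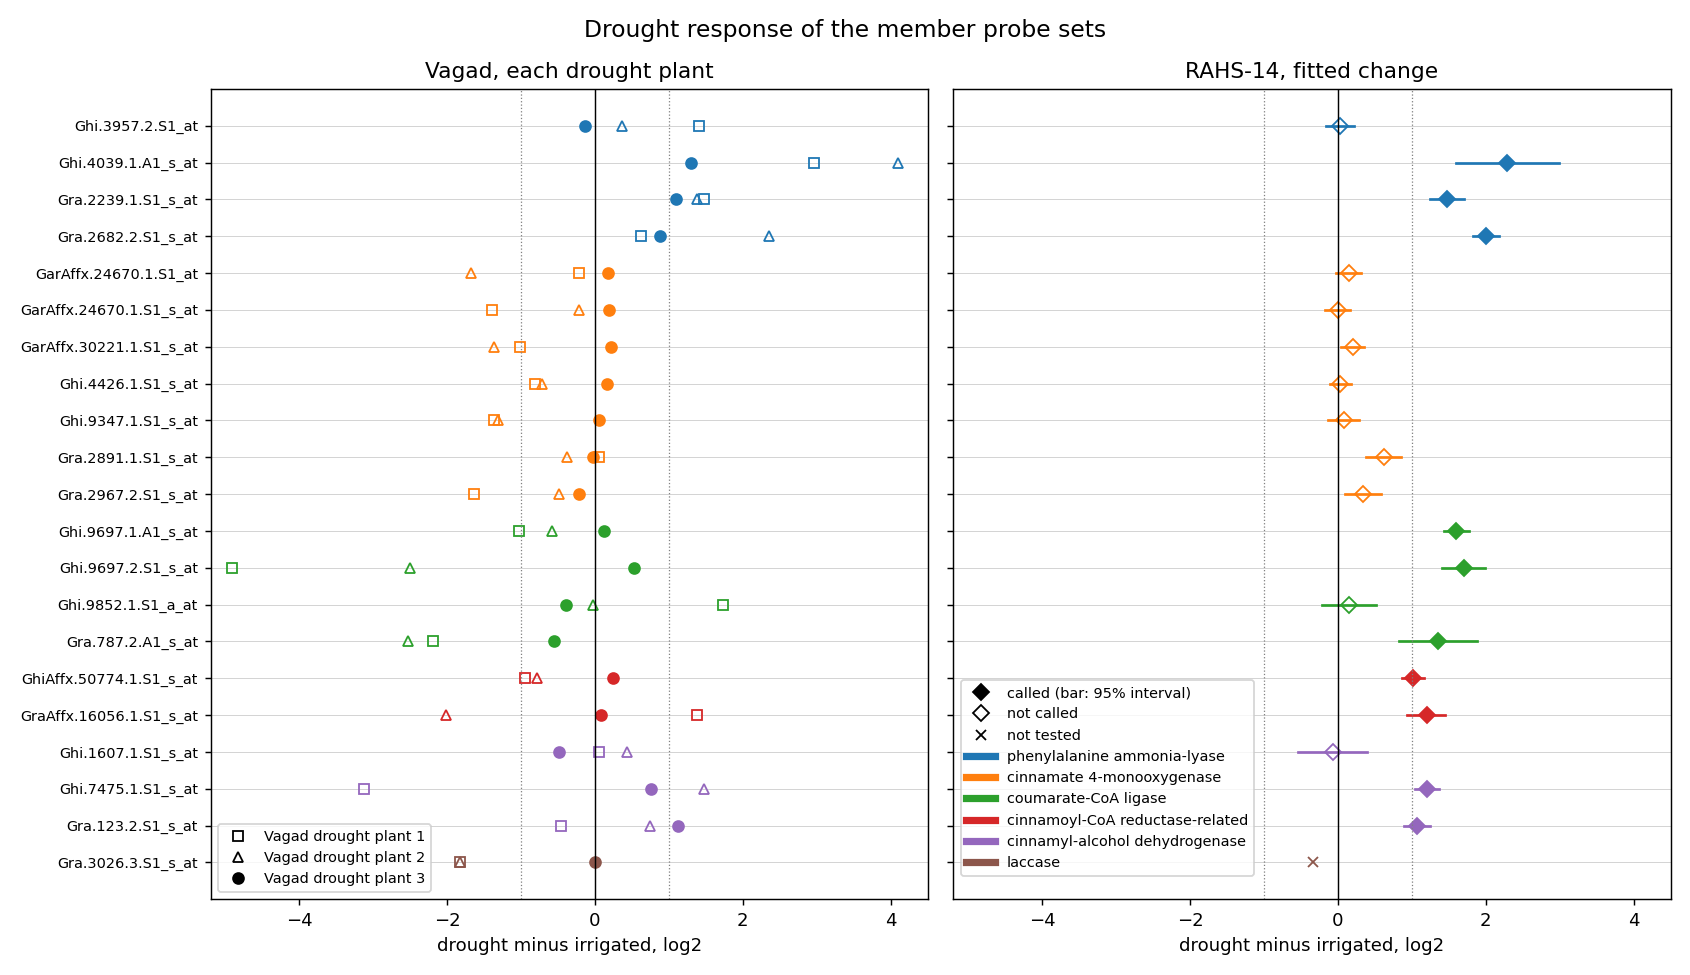
Drought minus irrigated, in log2 units on the horizontal axis, for each of the 21 probe sets: at left each Vagad drought plant against the mean of 3 irrigated plants (open squares and triangles are plants 1 and 2, filled circles plant 3), at right the fitted RAHS-14 response with its 95% interval (filled where called, a cross where not tested). Dotted lines mark a fold of 2 in either direction, and 10 RAHS-14 diamonds lie past the right one while the 7 cinnamate 4-monooxygenase diamonds lie between 0.00 and 0.62.

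Phenylalanine ammonia-lyase commits phenylalanine to the pathway, and 3 of its 4 probe sets were higher under drought in every drought plant of both accessions than in any irrigated plant of the same accession. In RAHS-14 alone 27% of all probe sets tested lay apart in that direction, and the share doing so in both accessions was not counted. Of the 3, Ghi.4039.1.A1_s_at entered the test only through the drought arrays. Gra.2239.1.S1_s_at had a log2 signal of 12.09 and 12 in Vagad drought plants 1 and 2 and 11.71 in plant 3, against 10.69, 10.76 and 10.40 in irrigated Vagad. In RAHS-14 it was 12.16, 12.07 and 12.24 under drought, against 10.74, 10.61 and 10.69 irrigated. The groups did not overlap in either accession, and the irrigated plants of the accessions overlapped, with Vagad minus RAHS-14 at -0.06. Its response was 1.32 in Vagad (standard error 0.22, limma's adjusted p = 0.0155, 12 arrays), which turned to -0.80 with arrays aligned at their medians, and 1.09 from plant 3 alone (standard error 0.14, limma's adjusted p = 0.000825, 10 arrays). In RAHS-14 it was 1.48, a 2.78-fold rise (standard error 0.10, limma's adjusted p = 8.09e-06).

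The ammonia-lyase Ghi.4039.1.A1_s_at had the largest RAHS-14 response of the 20. Its log2 signal was 9.26 and 10.40 in Vagad drought plants 1 and 2 and 7.59 in plant 3, against 6.56, 5.95 and 6.37 in irrigated Vagad. RAHS-14 drought plants had 7.59, 7.75 and 7.25, against 5.90, 5.24 and 4.57 in irrigated RAHS-14. Drought plants lay above irrigated plants in both accessions, and Vagad plant 3 fell among the RAHS-14 drought plants. The response was 2.79 in Vagad over 12 arrays (standard error 0.62, limma's adjusted p = 0.039), of which plant 3 alone gave 1.30, and 2.29 in RAHS-14 (standard error 0.31, limma's adjusted p = 0.00044). Since it passed the filter only through the drought arrays, its calls are no support for a rise of the step. With no filter the Vagad call was lost (limma's adjusted p = 0.06) and the RAHS-14 call held (0.00453). In Gra.2682.2.S1_s_at the log2 signals were 9.65 and 11.38 in Vagad drought plants 1 and 2 and 9.90 in plant 3, against 9.09, 9.0 and 9.0 in irrigated Vagad, and 10.75, 10.71 and 10.78 in RAHS-14 under drought, against 8.86, 8.61 and 8.76 irrigated. It rose 4.01-fold in RAHS-14 (limma's adjusted p = 3.58e-07), and its Vagad response was not called, at 1.28 over 12 arrays (limma's adjusted p = 0.0719) and 0.88 from plant 3 (limma's adjusted p = 0.000627, under the fold required). The remaining ammonia-lyase, Ghi.3957.2.S1_at, was 12.67, 11.63 and 11.12 in Vagad drought plants 1 to 3, against 11.14, 11.27 and 11.36 in irrigated Vagad, and 11.17, 11.34 and 11.32 in RAHS-14 under drought, against 11.29, 11.16 and 11.29 irrigated. All RAHS-14 plants lay within a narrow band, and the response there was 0.03 with a 95% interval from -0.16 to 0.22.

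**Figure D2:**
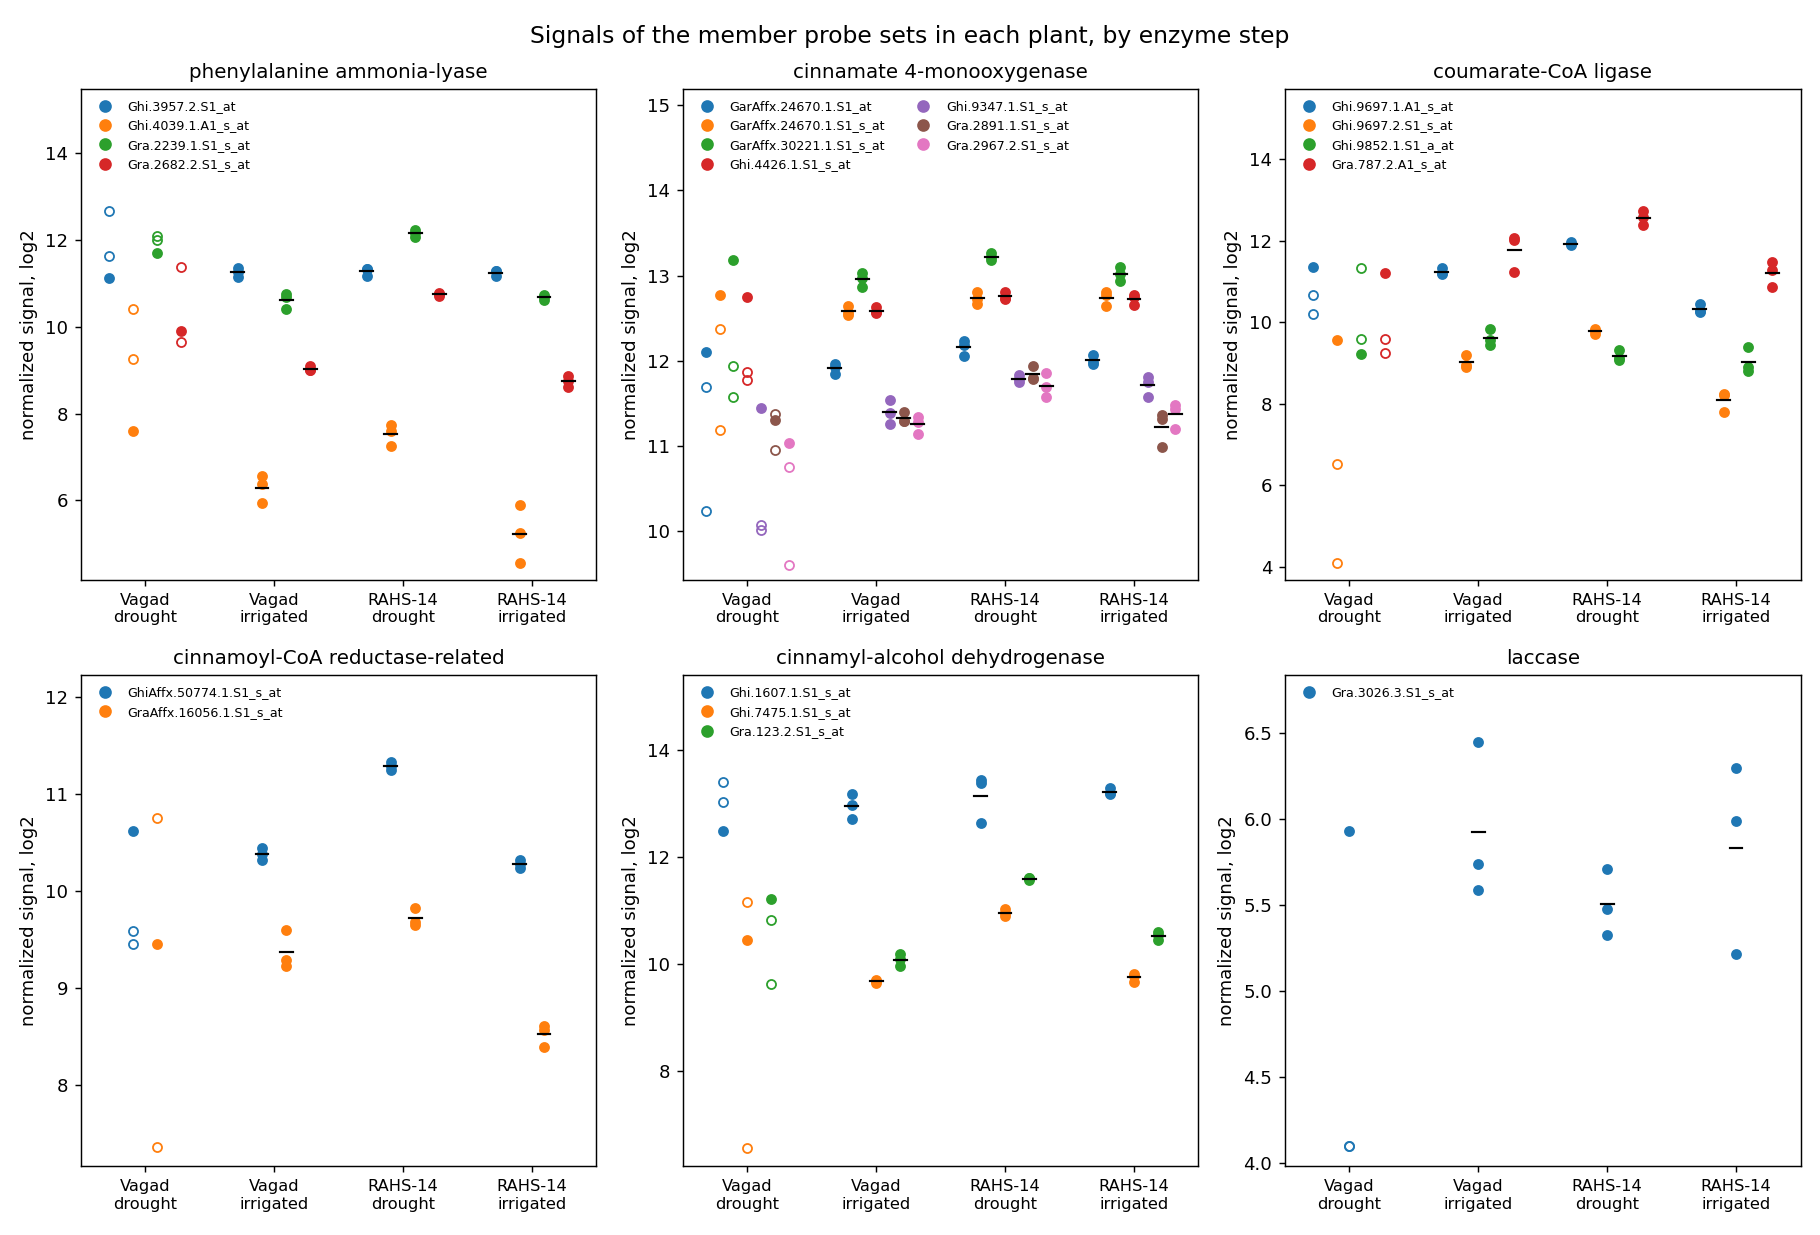
Normalized signal on a log2 axis for every member in every plant, 1 panel per enzyme step and 1 colour per probe set, with groups along the horizontal axis. Open circles are Vagad drought plants 1 and 2, and short black bars are means of 3 plants in the other groups. Heights of different probe sets cannot be compared. Within the cinnamate 4-monooxygenase panel the RAHS-14 drought and irrigated means of a probe set differ by 0.62 at most, while in the ammonia-lyase panel 3 of 4 differ by 1.48 to 2.29.

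Cinnamate 4-monooxygenase, the second step, had the most probe sets and the lowest median RAHS-14 response of the 5 tested steps, 0.15, with a range from 0.00 to 0.62. Single members of 3 other steps, Ghi.3957.2.S1_at, Ghi.9852.1.S1_a_at and Ghi.1607.1.S1_s_at, also lay within 0.15 of 0. GarAffx.30221.1.S1_s_at had log2 signals of 11.94 and 11.58 in Vagad drought plants 1 and 2 and 13.18 in plant 3, against 12.87, 12.97 and 13.03 in irrigated Vagad. In RAHS-14 they were 13.18, 13.22 and 13.26 under drought and 13.10, 12.94 and 13.02 irrigated. The RAHS-14 groups were separate but close, with a response of 0.20 (95% interval 0.04 to 0.36, limma's adjusted p = 0.059). A pair of probe sets was designed on 1 sequence, GarAffx.24670.1, and correlated at 0.58 over the 10 arrays. Its plain probe set, GarAffx.24670.1.S1_at, had 11.69 and 10.24 in Vagad drought plants 1 and 2 and 12.10 in plant 3, against 11.85, 11.96 and 11.93 in irrigated Vagad, and 12.06, 12.19 and 12.23 in RAHS-14 under drought, against 12.07, 11.99 and 11.96 irrigated. Its shared probe set, GarAffx.24670.1.S1_s_at, had 11.19 and 12.37 in Vagad drought plants 1 and 2 and 12.77 in plant 3, against 12.56, 12.64 and 12.54 in irrigated Vagad, and 12.72, 12.81 and 12.67 in RAHS-14 under drought, against 12.77, 12.64 and 12.81 irrigated. In RAHS-14 the drought and irrigated plants overlapped for both, with responses of 0.15 (95% interval -0.02 to 0.31) and 0.00 (95% interval -0.17 to 0.16).

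The largest RAHS-14 response of this step was that of Gra.2891.1.S1_s_at. Its log2 signal was 11.38 and 10.95 in Vagad drought plants 1 and 2 and 11.30 in plant 3, against 11.29, 11.29 and 11.40 in irrigated Vagad. RAHS-14 had 11.79, 11.94 and 11.80 under drought, against 11.32, 10.99 and 11.37 irrigated. The RAHS-14 groups did not overlap, and its response of 0.62 passed the adjusted p (limma, 0.00186) but at 1.53-fold missed the fold of 2. Gra.2967.2.S1_s_at also passed the adjusted p alone (limma, 0.0335), at 1.26-fold. For Ghi.4426.1.S1_s_at and Ghi.9347.1.S1_s_at the RAHS-14 plants overlapped, with responses of 0.03 and 0.08. Among the 1593 probe sets tested that were as bright as these 7 in irrigated RAHS-14 (a mean log2 of at least 11.23), 1.38% rose. The upper 95% bounds of all 7 responses reached 0.85 at most, under the doubling that the call requires, so in the 9-array fit a rise of 2-fold lay outside the interval of each. In the 12-array fit it lay inside the interval of 4 of the 7, with upper bounds up to 1.12. In Vagad the 3 plants differed widely: the 7 responses ran from -1.64 to 0.05 in plant 1, from -1.68 to -0.21 in plant 2 and from -0.21 to 0.22 in plant 3. By limma 0 of 7 were called in Vagad, with or without plants 1 and 2.

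Coumarate-CoA ligase rose in RAHS-14 in 3 of 4 probe sets and was called in Vagad in 0 of 4. The irrigated RAHS-14 plants also belong to the comparison that chose these probe sets. Against the mean of both irrigated groups the same 3 rose less, by 2.11-fold to 2.35-fold. The gap between the accessions in response is described without a test, because the accession contrasts chose the members. Ghi.9697.1.A1_s_at and Ghi.9697.2.S1_s_at come from 1 sequence cluster and correlated at 0.97 over the 10 arrays, so they are not independent. Ghi.9697.2.S1_s_at had a log2 signal of 4.10, the floor, and 6.51 in Vagad drought plants 1 and 2 and 9.55 in plant 3, against 8.89, 8.95 and 9.20 in irrigated Vagad. In RAHS-14 it was 9.72, 9.78 and 9.83 under drought, against 8.24, 7.80 and 8.20 irrigated. Drought plants of RAHS-14 were the highest of all groups and irrigated ones, apart from Vagad drought plants 1 and 2, the lowest. It rose 3.24-fold in RAHS-14 (standard error 0.13 on the log2 scale, limma's adjusted p = 1.47e-05). Its Vagad response was -2.29 over 12 arrays (limma's adjusted p = 0.131) and 0.53 from plant 3 (limma's adjusted p = 0.0547).

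Its neighbour Ghi.9697.1.A1_s_at had 10.21 and 10.66 in Vagad drought plants 1 and 2 and 11.36 in plant 3, against 11.21, 11.19 and 11.32 in irrigated Vagad, and 11.97, 11.90 and 11.91 in RAHS-14 under drought, against 10.28, 10.26 and 10.44 irrigated. It rose 3.03-fold in RAHS-14 (limma's adjusted p = 7.36e-07). Gra.787.2.A1_s_at had 9.58 and 9.24 in Vagad drought plants 1 and 2 and 11.20 in plant 3, against 12.06, 12.01 and 11.24 in irrigated Vagad, and 12.73, 12.39 and 12.57 in RAHS-14 under drought, against 11.48, 10.86 and 11.28 irrigated. All 3 Vagad drought plants lay below all irrigated Vagad plants and all RAHS-14 drought plants above all irrigated ones. Its Vagad response was -1.76 over 12 arrays (standard error 0.48, limma's adjusted p = 0.0614) and -0.56 from plant 3 (limma's adjusted p = 0.221). In RAHS-14 it was 1.36 in RAHS-14 (standard error 0.23, limma's adjusted p = 0.00186). The remaining ligase, Ghi.9852.1.S1_a_at, the only member listed as higher in irrigated RAHS-14, had 11.34, 9.59 and 9.22 in Vagad drought plants 1 to 3, against 9.45, 9.55 and 9.82 in irrigated Vagad, and 9.31, 9.08 and 9.11 in RAHS-14 under drought, against 8.89, 8.79 and 9.39 irrigated. Its RAHS-14 groups overlapped, with a response of 0.15 (95% interval -0.22 to 0.51).

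Both cinnamoyl-CoA reductase-related probe sets, named for the enzyme that opens the lignin branch, rose in RAHS-14. GraAffx.16056.1.S1_s_at had log2 signals of 10.75 and 7.36 in Vagad drought plants 1 and 2 and 9.45 in plant 3, against 9.29, 9.23 and 9.60 in irrigated Vagad. RAHS-14 had 9.83, 9.68 and 9.65 under drought, against 8.39, 8.57 and 8.61 irrigated. RAHS-14 drought plants lay above all irrigated plants of both accessions, and irrigated RAHS-14 plants below all irrigated Vagad plants. The rise was 2.29-fold in RAHS-14 (limma's adjusted p = 5.33e-05), but 1.71-fold and not called against the mean of both irrigated groups. GhiAffx.50774.1.S1_s_at had 9.45, 9.59 and 10.62 in Vagad drought plants 1 to 3, against 10.44, 10.38 and 10.32 in irrigated Vagad, and 11.33, 11.29 and 11.25 in RAHS-14 under drought, against 10.32, 10.28 and 10.24 irrigated. Irrigated plants of both accessions were close, and the RAHS-14 rise of 2.02-fold (standard error 0.06 on the log2 scale, limma's adjusted p = 4.68e-06) sat at the fold required. It was not called without RAHS-14 drought plant 1 or without irrigated plant 3 (log2 response 1.00 in each), nor against the mean of both irrigated groups (0.96).

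Cinnamyl-alcohol dehydrogenase makes the last reduction to monolignols. Ghi.7475.1.S1_s_at had log2 signals of 6.56 and 11.16 in Vagad drought plants 1 and 2 and 10.44 in plant 3, against 9.65, 9.71 and 9.69 in irrigated Vagad. RAHS-14 plants had 10.89, 10.95 and 11.03 under drought, against 9.81, 9.77 and 9.67 irrigated. Vagad drought plants 1 and 2 lay on opposite sides of their irrigated level, and all RAHS-14 drought plants lay above theirs. The RAHS-14 rise was 2.32-fold (limma's adjusted p = 2.53e-06), and plant 3 of Vagad, a single plant, was 1.69-fold up, under the fold required. Gra.123.2.S1_s_at had 9.62 and 10.82 in Vagad drought plants 1 and 2 and 11.22 in plant 3, against 10.10, 10.18 and 9.97 in irrigated Vagad, and 11.60, 11.61 and 11.57 in RAHS-14 under drought, against 10.60, 10.44 and 10.55 irrigated. In plant 3 of Vagad, a single plant, it was 2.20-fold up, while plants 1 and 2 gave log2 responses of -0.46 and 0.74. It was called in RAHS-14 at 2.09-fold (limma's adjusted p = 9.88e-06), while over 12 arrays the Vagad response was 0.47 (limma's adjusted p = 0.346). Ghi.1607.1.S1_s_at, also a dehydrogenase, had 13.02, 13.40 and 12.48 in Vagad drought plants 1 to 3, against 13.18, 12.97 and 12.71 in irrigated Vagad, and 13.38, 13.43 and 12.63 in RAHS-14 under drought, against 13.19, 13.18 and 13.29 irrigated. Its RAHS-14 drought plants lay on both sides of the irrigated ones, with a response of -0.07 (95% interval -0.54 to 0.39).

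The laccase probe set Gra.3026.3.S1_s_at was dim on every array and was not tested. Its deposited signals were 16.9, 49.6 and 36.6 in Vagad drought plants 1 to 3, against 45.2, 26.5 and 24.3 in irrigated Vagad, and 25.0, 29.2 and 25.8 in RAHS-14 under drought, against 33.2, 23.6 and 39.7 irrigated. After normalization Vagad drought plants 1 and 2 were at the floor, and the groups overlapped in RAHS-14.

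The Vagad responses were fitted over 12 arrays, where RAHS-14 also had 2 of 20 raised. In Vagad 2 of 20 rose, the ammonia-lyases Ghi.4039.1.A1_s_at and Gra.2239.1.S1_s_at, and 0 fell (limma), against 1.44% and 2.4% of all probe sets tested. Ghi.4039.1.A1_s_at is counted here although it entered the test only through the drought arrays. The median over all probe sets tested was itself -0.63 in this fit. With median alignment instead of quantile normalization the direction turned for Gra.2239.1.S1_s_at, whose response became -0.80, and 15 members fell while 1, Ghi.4039.1.A1_s_at, rose. Under that scaling 58.5% of all probe sets tested fell and 1.02% rose. Ghi.4039.1.A1_s_at was no longer called without Vagad drought plant 1 or when any 1 of the 9 other arrays of irrigated Vagad and RAHS-14 was left out, and Gra.2239.1.S1_s_at without any 1 of the 3 irrigated Vagad plants. From plant 3 alone, whose spread is assumed to be that of the other groups, 2 of 20 rose, Gra.2239.1.S1_s_at and Gra.123.2.S1_s_at, against 3.22% of all tested, and 0 fell, against 4.36%. Over plants 1 and 2 the 21 members ran from -4.91 to 4.10, with 11 lower and 5 higher than the irrigated mean in both plants, while plant 3 ran from -0.56 to 1.30 with a median of 0.16. The shares of all probe sets lower or higher in both plants were not counted, so these 2 counts are values only. Plant 3 lay above all 3 irrigated Vagad plants for 12 of 21 members, against 38.5% of all probe sets tested, and below them for 5, against 37.1%. Of the members, 3 ammonia-lyases lay above the irrigated mean in all 3 Vagad drought plants, and Gra.2967.2.S1_s_at and Gra.787.2.A1_s_at lay below it in all 3. The shares of all probe sets that did so were not counted either.

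With equal group sizes and equal spread, the mean drought response of both accessions is uncorrelated with the accession contrasts that chose the members. Spread was not equal: for Ghi.9697.2.S1_s_at the standard deviation was 2.73 in Vagad drought plants and 0.06 to 0.24 in the other groups. Over the 10 arrays the Vagad drought group held 1 plant, so group sizes were not equal either. The counts below are therefore not shown to be free of that choice. Over 12 arrays 3 of 20 rose, all of them ammonia-lyases: Ghi.4039.1.A1_s_at by 2.54 (limma's adjusted p = 0.0114), Gra.2682.2.S1_s_at by 1.64 (0.0112) and Gra.2239.1.S1_s_at by 1.40 (0.00115), with standard errors of 0.44, 0.28 and 0.16. Of these 3, Ghi.4039.1.A1_s_at entered the test only through the drought arrays, so its calls are no support for a rise of the step. Of all probe sets tested 1.06% rose and 1.77% fell, with a median of -0.33. Aligned at medians, Ghi.4039.1.A1_s_at was still called and the other two were not. Without Vagad drought plants 1 and 2 the same ammonia-lyases were called, at 1.80, 1.44 and 1.28, and with them Ghi.9697.2.S1_s_at at 1.12 and Gra.123.2.S1_s_at at 1.10, which made 5 of 20 raised, against 2.12% of all tested, and 0 lowered, against 2.72%. The 7 cinnamate 4-monooxygenase means lay between -0.40 and 0.25 over 12 arrays and between 0.07 and 0.29 over the 10, and 0 were called in either.

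The differences between the accessions chose the members and are given as values only. Of the 21, 20 came from the list of transcripts higher in irrigated Vagad, 1 from that of irrigated RAHS-14 and 12 also from that of Vagad under drought. In the deposited signals the direction was mixed: of the 20, 10 had the higher mean in irrigated Vagad and 10 the lower, and 1, Ghi.4039.1.A1_s_at, was higher by at least 2-fold (1.06 on the log2 scale). The lists may rest on values other than the deposited ones, and whether list labels and array titles match was not tested. Groups here follow the array titles. Ghi.9852.1.S1_a_at, listed for irrigated RAHS-14, was higher in irrigated Vagad by 0.59. All 4 coumarate-CoA ligases were higher in irrigated Vagad, by 0.56 to 0.93. Of cinnamate 4-monooxygenase 6 of 7 were lower there, by 0.06 to 0.32, and of cinnamyl-alcohol dehydrogenase all 3, by 0.07 to 0.45. The median difference of the 21 was 0.01, and the 2 groups did not overlap for 7 members higher and 4 lower in Vagad, against 19.8% and 19.5% of all tested.

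Under drought Vagad plant 3 lay below the RAHS-14 mean for 16 of 21 members, and 9 of the 21 had the opposite sign to their irrigated difference. The shares of all probe sets that did so were not counted, so these counts are values only. Plant 3 lay below all 3 RAHS-14 drought plants for 14 of 21, against 38.6% of all probe sets tested, and above all 3 for 1, the laccase, against 41.5%. The median of plant 3 minus the RAHS-14 mean was -0.34, where all probe sets tested had 0.02. Members ran from -1.36 in Gra.787.2.A1_s_at to 0.42 in the laccase. Over all 3 Vagad drought plants the median was -0.80, where all probe sets tested had -0.64. Of the 12 members listed as higher in Vagad under drought, plant 3 was above the RAHS-14 mean for 2, below it for 9 and equal at 2 decimals for 1. By the mean of all 3 Vagad drought plants 1 was above and 11 below. The response of plant 3 was smaller than that of RAHS-14 for 15 of 21, against 49.8% of all tested, with a median difference of -0.45. All 4 coumarate-CoA ligases shared that direction, by -1.92 to -0.53, and all 4 ammonia-lyases by -1.13 to -0.17, while in cinnamate 4-monooxygenase 3 of 7 did.

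**Figure D3:**
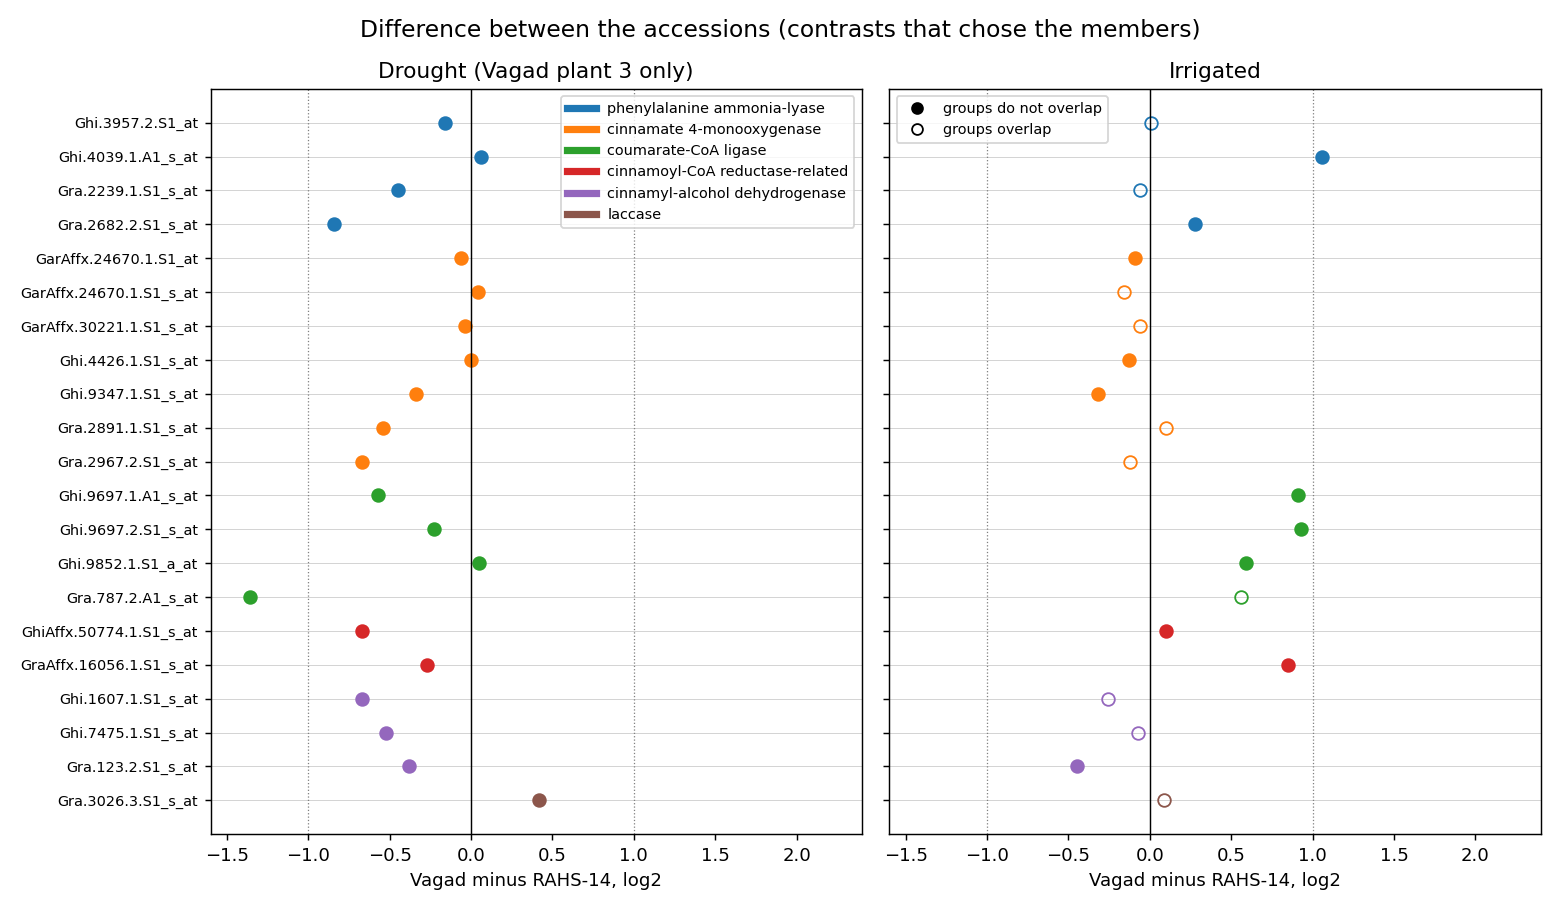
Vagad minus RAHS-14, in log2 units on the horizontal axis, for each member: at left under drought with Vagad plant 3 against the mean of 3 RAHS-14 plants, at right irrigated with 3 plants against 3 (filled where the groups do not overlap). Colours give the enzyme step and dotted lines a fold of 2. The coumarate-CoA ligases lie right of 0 when irrigated (0.56 to 0.93), and under drought 3 of 4 lie left of it.

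The genes around the pathway came from keyword lists over the same published names, so each had been picked on these arrays and is no independent evidence of direction. In the flavonoid branch, which takes coumaroyl-CoA to pigments, 0 of 16 tested probe sets were called in Vagad in either fit, with medians of -0.23 over 12 arrays and 0.12 from plant 3, and in RAHS-14 13 of 16 rose over 9 arrays, against 2.49% of all probe sets tested, and 6 of 16 over 12 arrays, against 0.411%, with a median of 1.35. The 4 with the largest RAHS-14 fold were a leucocyanidin oxygenase, Ghi.1234.1.S1_s_at (2.20, limma's adjusted p = 1.35e-07), and the chalcone synthases Gra.207.1.A1_s_at (2.14), Ghi.2516.1.S1_s_at (1.91) and Ghi.1443.1.S1_x_at (1.81). The 3 not called there were isoflavone reductases. Aromatic amino acid supply, which provides phenylalanine, had 0 of 3 tested probe sets called in RAHS-14 and a median of -0.54, with the arogenate dehydratases Ghi.10771.2.S1_s_at at -0.57 and GraAffx.33844.1.A1_s_at at -0.54 (limma's adjusted p = 0.0027 and 0.00295, both under the fold required). In Vagad 0 of these 3 rose, and Ghi.10771.2.S1_s_at fell by 1.03 in plant 3, with a response of -1.04 over 12 arrays that was not called (limma's adjusted p = 0.0651).

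Later lignin and hydroxycinnamate steps had 0 of 5 called in each accession, with RAHS-14 responses from -0.75 in a peroxidase, GhiAffx.16329.1.A1_s_at, to 0.77 in another, Ghi.6559.1.S1_at. The list held 9 probe sets, and the 5 tested were peroxidases and 1 ferulate 5-hydroxylase. Among those too dim to test, the O-methyltransferase Ghi.160.1.S1_at had a RAHS-14 mean of 6.42 under drought and 5.13 irrigated. The others not tested had RAHS-14 means between 4.10 and 4.97. The ferulate 5-hydroxylase GhiAffx.53142.1.S1_s_at, of the syringyl lignin branch, had a response of -0.15 in RAHS-14 (limma's adjusted p = 0.218). Among MYB factors, a family that holds regulators of this pathway, 1 of 12 rose in RAHS-14, GarAffx.37322.1.S1_s_at by 1.13, and 1 fell, GhiAffx.40609.1.S1_at, with a response of -1.30 (limma's adjusted p = 0.000103 and 0.000141). The MYB108 probe set GhiAffx.48583.1.S1_at was 2.28 below the irrigated mean in Vagad plant 3, a single plant, where it was 4.20, near the floor of 4.10. Over 12 arrays its Vagad response was 0.59 (limma's adjusted p = 0.651).

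**Figure D4:**
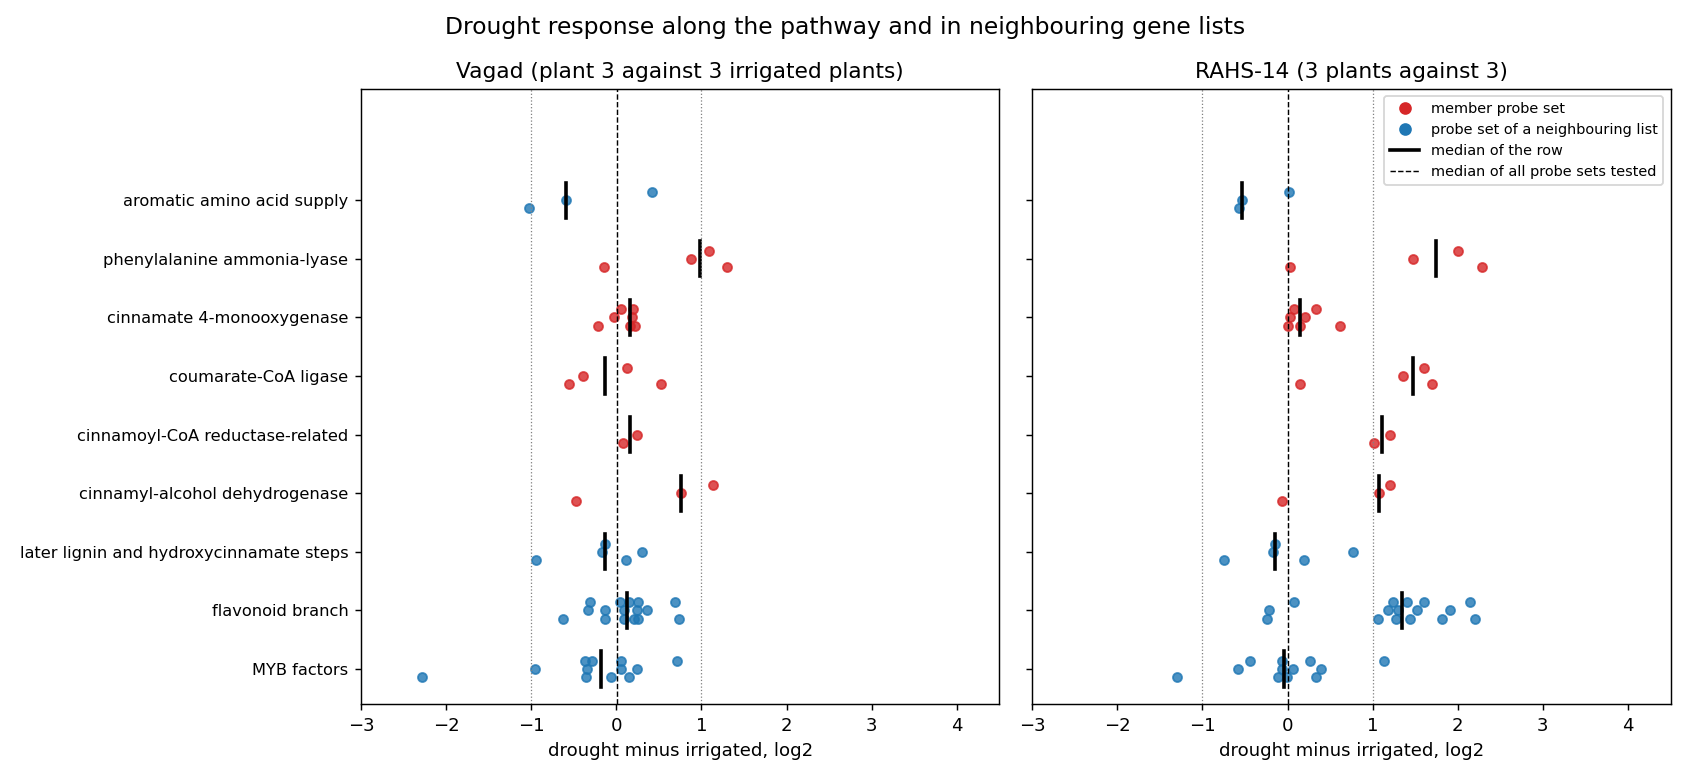
Drought minus irrigated, in log2 units on the horizontal axis, along the pathway: members by step in red and probe sets of neighbouring lists in blue, with Vagad plant 3 at left and RAHS-14 at right. Rows hold only probe sets that were tested. Thick black bars are row medians and the dashed line is the median of all probe sets tested. In RAHS-14 the row medians of 4 member steps and of the flavonoid branch (1.35) lie past the dotted line of a 2-fold rise, and those of cinnamate 4-monooxygenase (0.15), aromatic supply (-0.54) and later lignin steps (-0.15) do not.

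Markers of cell types were looked at as a check of the tissue. Of 9 tested markers of xylem and thick walls 0 rose and 1 fell in RAHS-14, the xylosidase Ghi.5042.1.A1_s_at (-1.59, limma's adjusted p = 1.67e-06), and the summed log2 level of that list was 13.19 to 13.29 in RAHS-14 drought plants and 13.38 to 13.50 in irrigated ones. In Vagad the same xylosidase fell by 4.28 over 12 arrays and by 1.41 in plant 3, and 0 rose. Leaf mesophyll markers had 0 of 4 called in RAHS-14, with sums of 10.01 to 10.15 under drought and 10.09 to 10.18 irrigated. The names on this array list held few defining leaf genes, and the chlorophyll-binding probe sets Ghi.6877.1.A1_at and Ghi.6877.2.A1_at were at or near the floor in RAHS-14, so they say little about the tissue. Of 2 tested seed storage or lipid transfer markers 1 fell in RAHS-14, GhiAffx.6046.1.S1_at (-1.88), against 3.41% of all tested. Its mean under drought was 4.91, near the floor of 4.10. The other, GhiAffx.44558.1.S1_s_at, was higher by 0.65 (limma's adjusted p = 0.000232), under the fold required. The summed list was 12.19 to 12.30 under drought and 11.55 to 11.73 irrigated. The fibre protein GbaAffx.6.1.S1_s_at had a response of -0.24. The part of these markers in the member responses was not tested.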

How the data were processed

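The authors made the deposited intensity values with MAS5 (version not given in the sources used here), on a linear scale, and the trimmed mean was 500.1 on each array. Their methods also name log2 RMA values, which are not analysed here, and detection calls were not used here. Medians spanned 2.50 on the log2 scale, so the 12 arrays were quantile normalized without the 103 control probe sets, a floor of 17.2 was set at the median 20th percentile, and values were log2 transformed. Probe sets above the array median on at least 3 arrays were tested with limma 3.58.1 in R 4.3.3, with p-values adjusted over all 12883. The RAHS-14 response was fitted on 9 arrays, leaving out Vagad drought, the others on 12 arrays, with 10 beside them. The spread was shared between groups, so each error draws on all arrays in the fit. The fit was tested on simulated data, and figures were drawn with matplotlib 3.10.9. The members, lists and tests were chosen with earlier results of these data known. Named genes were all members, with values per plant for the most and least responsive of each step and those certain to match, and up to 4 called probe sets per list. Values per plant of further members, and other list genes named, were added after they were seen. Alternatives covered scaling, floor, filter, spread, replicate block, arrays in the fit, baseline and the plain test of the methods. Replicate numbers were not treated as pairs. For arrays the number of plants limits the precision. Columns of published comparisons served only to choose members and names. The platform table gave several symbols for 1 member and was not used. No member sequence was printed.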

Additional observations from a re-analysis of the deposited data

Results flagged for a closer look

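In 2 members every Vagad drought plant lay below the irrigated Vagad mean while every RAHS-14 drought plant lay above the irrigated RAHS-14 mean. The coumarate-CoA ligase Gra.787.2.A1_s_at had a Vagad response of -1.76 and a RAHS-14 response of 1.36, a difference of -3.12, where Vagad plants 1 to 3 gave -2.19, -2.53 and -0.56 while RAHS-14 plants gave 1.52, 1.18 and 1.37. The cinnamate 4-monooxygenase Gra.2967.2.S1_s_at had -0.78 in Vagad and 0.34 in RAHS-14, a difference of -1.12, where Vagad plants 1 to 3 gave -1.64, -0.49 and -0.21 while RAHS-14 plants gave 0.21, 0.31 and 0.49. Neither difference was tested, because the accession contrasts chose the members. The same pattern was present in 6.16% of the 12883 probe sets tested, and its opposite in 2.57%.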

How the results depend on the processing

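In RAHS-14 the count of members raised was 8 to 10 of 20, and 0 fell, under every alternative but the fit over all 12 arrays, which called 2, Gra.2239.1.S1_s_at (limma's adjusted p = 0.0136) and Ghi.9697.1.A1_s_at (0.0339), and which raised 53 and lowered 60 of all probe sets tested, against 321 and 439 over 9 arrays. Leaving out 1 array gave 9 to 10. The methods' t-test raised 10 at its threshold and 10 after Benjamini-Hochberg. Over single members 0 of the called responses changed sign in RAHS-14. Responses near 0 that were not called did change sign. Leaving out 1 array moved Ghi.1607.1.S1_s_at between -0.22 and 0.19. Against the mean of both irrigated groups Ghi.9852.1.S1_a_at was -0.15.

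In Vagad the count raised was 2 over 12 arrays, against 1.44% of all probe sets tested. It was 1 with arrays aligned at their medians (1.02% of all) and 1 with no filter (165 of all probe sets). It was 0 with the replicate block (0.45%) and 0 with the 6 Vagad arrays alone, where 0 of all 12883 rose. Leaving out 1 array gave 0 to 3. The count was 0 without any 1 irrigated Vagad plant (0.171% to 0.318% of all) and 1 without any 1 RAHS-14 plant (0.481% to 0.52%). The count lowered was 0 over 12 arrays (2.4% of all) and 15 with arrays aligned at their medians, where 58.5% of all probe sets tested fell. It was 1 with a trended and robust spread (3.03%) and 0 to 5 leaving out 1 array. The 5 came without Vagad drought plant 3, where 34.6% of all fell. Aligned at medians the response turned to -1.5 in Ghi.3957.2.S1_at, -0.80 in Gra.2239.1.S1_s_at, -1.36 in Ghi.9852.1.S1_a_at and -1.77 in Ghi.1607.1.S1_s_at. Leaving out 1 array moved Ghi.7475.1.S1_s_at between -1.18 without Vagad drought plant 2 and 1.12 without plant 1.

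The mean drought response raised 3 members, against 1.06% of all probe sets tested, and 1 with arrays aligned at their medians, against 0.481%. Leaving out 1 array gave 3 to 5, with 5 without Vagad drought plant 1, where 1.52% of all rose. In Ghi.9697.2.S1_s_at this response was -0.30 over 12 arrays. It turned to 1.29 with the 10 arrays normalized alone and to 1.12 without Vagad drought plants 1 and 2. The median accession difference of the 21 members was 0.01 irrigated and 0.18 with arrays aligned at their medians. Under drought it was -0.80, -2.54 aligned at medians and -0.34 over the 10 arrays. The median difference in response was -0.74, -2.67 aligned at medians and -0.47 over the 10 arrays. The cause of these shifts was not tested.

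The replicate block left 10 members raised in RAHS-14. Residuals of the 18 same-numbered pairs correlated from -0.10 to 0.06, with 0 over 0.1, so the numbers did not pair the plants.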

Other observations

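Outside the members, the named probe sets whose signal followed the mean of the 7 cinnamate 4-monooxygenase members most closely over the 10 arrays were a B-box zinc finger protein, Ghi.755.2.S1_at (r = 0.982), a protein kinase, Ghi.8589.2.S1_s_at (0.975), GhiAffx.62090.2.S1_a_at (0.969), a heat shock protein, GhiAffx.41577.1.S1_s_at (0.953), and a plasma membrane intrinsic protein, Ghi.6492.1.S1_s_at (0.950). They were the highest of 1414 candidates, the arrays share their groups, and the values are a description. The next rankings were singled out after their values were seen. For the 4 coumarate-CoA ligases, ranked in the same way, 3 of the 5 closest were chalcone synthases, Gra.2508.2.S1_x_at (0.976), Gra.2508.1.A1_x_at (0.971) and Ghi.2516.1.S1_s_at (0.970). For the 4 ammonia-lyases the closest was Ghi.5587.1.S1_at (0.991), listed without a protein name. Next came an oxidoreductase, GhiAffx.4183.1.S1_s_at (0.983), and a splicing modulator, Ghi.2090.1.S1_s_at (0.981). The last of the 5 were RESPONSIVE TO DESICCATION 26, Ghi.7907.1.S1_s_at (0.980), a transcription factor of the dehydration response, and a pheophorbide a oxygenase, GhiAffx.19126.1.A1_at (0.973).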
